A study of Homo sapiens with 3 samples.

Results

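The S100A genes code for small calcium-binding proteins, and 9 of them were followed here by their gene symbols: S100A1, S100A2, S100A3, S100A4, S100A6, S100A10, S100A11, S100A13 and S100A16. They are 9 of the 20344 genes in the deposited tables, and each has 1 row. The files hold 2 libraries, whose titles both carry the word Prop: A375, Prop (the A375 library below) and A375-VR, Prop (the A375-VR library). Where values are given as a pair, the A375 library comes first. A375 is an established human melanoma line with mutant BRAF, and the title of the series concerns the beta blocker propranolol, resistance to the BRAF inhibitor vemurafenib and cell cycle arrest. The A375 library is A375 by title and by cell line label, whereas its extraction protocol, shared by all 3 samples, names only A375-VR cells, kept 24 h with propranolol (20 µM) or with DMSO. The remaining sample, A375-VR with DMSO by its title, but A375 by its cell line label, was not used here. Cell line, treatment, culture and library preparation therefore cannot be told apart in any difference given below. There was 1 library per group, so no test of a condition was possible and no p-value is given.

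An S100 protein is a compact dimer in which each chain holds a pair of EF-hands, the helix-loop-helix units that bind calcium. The loop near the C-terminus is the canonical one: its acidic side chains hold the ion, and binding opens a hydrophobic cleft that grips a target protein. The family has no enzyme activity. Its members act on annexins, myosin, p53 and other partners inside the cell, and some are released and bind surface receptors. Most of the genes sit together on the long arm of chromosome 1, and S100 proteins have long served as markers in the pathology of melanocytic tumours.

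The C-terminal calcium loop of each member is printed so that the loops can be compared, above all at their first and last codons. Each run holds the 36 coding bases of the 12 loop positions, read from GRCh37 along the canonical GENCODE transcript, and the capitals mark the codons of the first and last position.
S100A1 (chr1:153604219-153604254, plus strand): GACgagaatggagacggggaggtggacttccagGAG
S100A2 (chr1:153533987-153534022, minus strand): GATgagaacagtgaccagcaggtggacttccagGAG
S100A3 (chr1:153520242-153520277, minus strand): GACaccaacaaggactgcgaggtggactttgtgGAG
S100A4 (chr1:153516319-153516354, minus strand): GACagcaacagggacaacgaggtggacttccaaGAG
S100A6 (chr1:153507229-153507264, minus strand): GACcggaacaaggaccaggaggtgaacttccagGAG
S100A10 (chr1:151955720-151955755, minus strand): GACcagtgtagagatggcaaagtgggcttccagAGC
S100A11 (chr1:152005219-152005254, minus strand): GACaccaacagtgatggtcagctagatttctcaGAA
S100A13 (chr1:153591443-153591478, minus strand): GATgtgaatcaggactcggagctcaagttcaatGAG
S100A16 (chr1:153580088-153580123, minus strand): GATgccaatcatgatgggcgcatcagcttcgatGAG
All 9 loops open with an aspartate codon. The last codon codes for glutamate, the side chain that clasps calcium from both oxygens, in 8 of 9 members. The exception was S100A10, which is known to hold a calcium-ready shape without binding the ion. A stricter pattern, which also asks for aspartate, asparagine or serine at positions 3 and 5 and for glycine at position 6, was met by only 3 members, S100A1, S100A11 and S100A16. The proteins were 90 to 105 residues long by translation of these transcripts. Across the 36 pairs of members, identity over aligned residues ran from 25.0% to 61.9%, with a median of 34.2%, and was highest between S100A2 and S100A4. The longest stretch of identical coding bases between any pair was 21 (S100A1 and S100A2), against reads of 150 bp.

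Transcript levels are in FPKM, which scales reads by gene length and library total. Levels of different genes in a library can thus be set in order only as far as the lengths used fit the transcripts expressed. The length that the FPKM imply equalled the reference exon length in 4 members only. It was 340 bp against 649 for S100A11 and 1543 bp against 1012 for S100A10. S100A6, or calcyclin, was the most abundant member, with 999 and 1573 FPKM. It held rank 23 among all genes in the A375 library and rank 9 in the other. S100A11, a partner of annexin A1, came next with 648 and 699 FPKM. S100A10, the light chain of the annexin A2 tetramer, had 359 and 347 FPKM. S100A16, a widely expressed member, had 262 and 337 FPKM, and S100A4, known as metastasin, had 196 and 344. These 5 members had over 100 FPKM in both libraries. S100A2, best known from basal epithelial cells, had 26.8 and 30.6 FPKM. S100A13, which takes part in the release of FGF1, had 12.2 and 21.5 FPKM, and S100A3, a cysteine-rich protein of the hair cuticle, had 8.76 and 12.2. S100A1, the member of heart and skeletal muscle, was near the floor at 0.5003 and 0.120 FPKM, from 27 and 6 recovered reads.

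**Figure D1:**
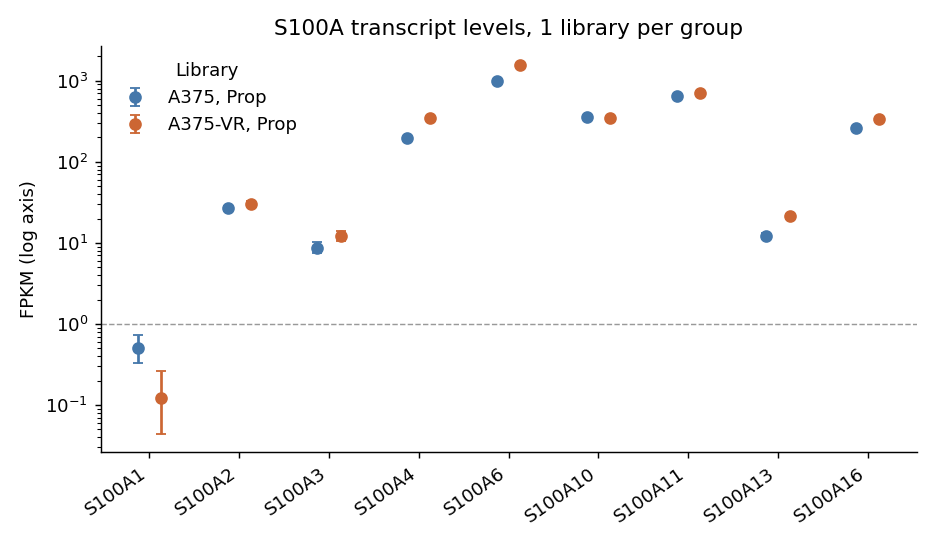
FPKM (log axis) of the 9 S100A genes in the A375 library (blue) and the A375-VR library (orange); bars are 95% counting intervals and the dashed line is the filter at 1 FPKM. S100A6 is highest at 999 and 1573 FPKM, and S100A1 alone lies below the filter in both libraries.

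The order of the members was the same in both libraries except that S100A4, at place 5 in the A375 library, traded places with S100A16 at place 4. In the A375 library no neighbours in the order had overlapping 95% counting intervals. Intervals of this kind rest on reads recovered from the FPKM and cover counting error only, not the choice of gene length. In the A375-VR library 3 members were level with each other at this depth: S100A10 at 347 FPKM (339.7 to 354), S100A4 at 344 (335 to 353) and S100A16 at 337 (331 to 344). Together the 9 genes summed to 2512 and 3364 FPKM, or 0.947% and 1.29% of all FPKM. S100A6 made up 39.8% of that sum in the A375 library and 46.7% in the other, and S100A4 7.80% and 10.2%. The share of S100A11 was 25.8% and 20.8%, and that of S100A10 14.3% and 10.3%. Of the 852 FPKM by which the sum was larger in the A375-VR library, S100A6 held 67.3%, S100A4 17.4% and S100A16 8.89%.

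Between the libraries, most of the measurable members were higher in the A375-VR library by less than 2-fold, and the largest ratios were those of S100A13, S100A4 and S100A6. Ratios are plain FPKM of the A375-VR library over the A375 library, with a 95% counting interval. In bulk RNA, fewer expressing cells and less RNA per cell cannot be told apart. S100A13 had a ratio of 1.76 (1.57 to 1.98) from 481 and 782 reads. S100A4, which binds the tail of nonmuscle myosin IIA, had a ratio of 1.76 (1.68 to 1.83) from 3577 and 5798 reads. S100A6 had a ratio of 1.57 (1.54 to 1.61) from 17277 and 25103 reads. S100A3 had a ratio of 1.40 with a wide interval (1.12 to 1.74) that overlapped all 3 of these. The intervals of the rest lay below those of S100A13, S100A4 and S100A6: S100A16 had a ratio of 1.29 (1.25 to 1.33), and S100A2 of 1.14 (1.03 to 1.26). S100A11 had a ratio of 1.08 (1.03 to 1.13) and S100A10 of 0.967 (0.939 to 0.995). The ratio of S100A1 was 0.241 (0.0813 to 0.595), the opposite direction to most of the family, but both of its levels were below 1 FPKM.

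**Figure D2:**
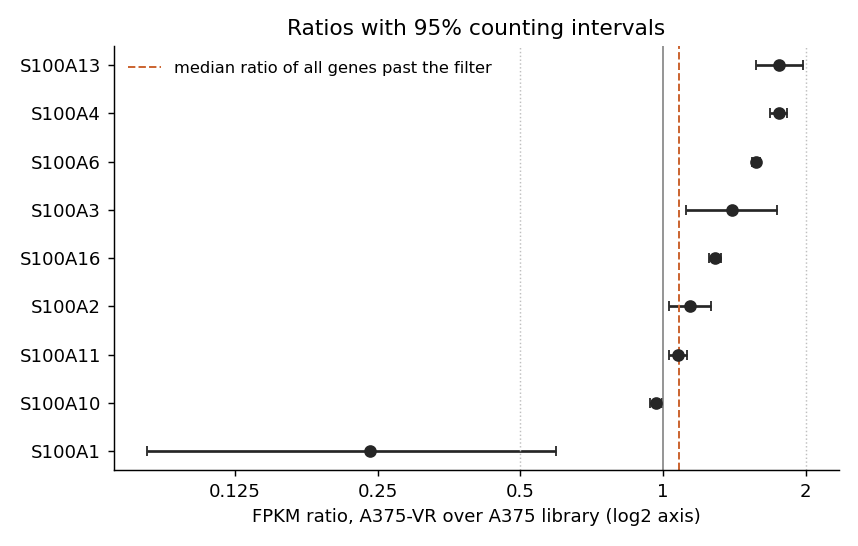
FPKM ratio of the A375-VR over the A375 library (log2 axis) for each S100A gene, with 95% counting intervals; the solid line marks a ratio of 1, the dotted lines ratios of 0.5 and 2, and the dashed line the median ratio of all genes past the filter, 1.08. S100A13, S100A4 and S100A6 lie at 1.76, 1.76 and 1.57, S100A11 lies on the dashed line, and S100A1 lies at 0.241 with a wide interval.

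To set the family against all genes, the difference of log2(FPKM + 1), A375-VR minus A375, was taken for genes with at least 1 FPKM in at least 1 library. This filter kept 8 of the 9 members, all but S100A1, and 10761 of all genes. A difference of at least 1 in size is called 2-fold. By this rule 0 of the 8 members were called higher and 0 lower, where 3.14% of all genes were called higher and 0.613% lower (338 and 66 genes, or 273 and 101 after centring on the median ratio of all genes). The median difference of the 8 members was 0.40, with a range from -0.05 to 0.81, and the median of all genes was 0.10. A difference above 0 was found in 7 of the 8 members and in 6493 of the 10761 genes. S100A4 had a difference of 0.81, which put it at percentile 94.4 of all genes, S100A13 of 0.77 at percentile 93.6 and S100A6 of 0.65 at percentile 90.9. S100A11 was at percentile 51.3 and S100A10 at 34.9. The added 1 shrinks the differences of genes with low FPKM more than those of abundant ones. Percentiles were not taken with a smaller added value.

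Every member past the filter had a counting interval that left out 1. The interval of the ratio lay above 1 in 7 of the 8 members and below 1 in S100A10, while it lay above 1 in 44.0% of all genes and below 1 in 26.6%. The median ratio of all genes was 1.08, so a member can exceed 1 by sharing that shift. Against the median ratio, 5 members were higher (S100A3, S100A4, S100A6, S100A13 and S100A16), S100A10 was lower, and the intervals of S100A2 and S100A11 held it. Among all genes 33.9% were higher in this sense and 35.1% lower. Whether an interval leaves out a value depends on depth. The 5 members over 100 FPKM had 3577 to 25103 reads, and the remaining members past the filter 149 to 789. The median gene past the filter had 622 and 636 reads, so these counts and shares are not compared at like depth. After centring on the median ratio, S100A11 changed from 0.11 to -0.01 on the log2(FPKM + 1) scale and S100A10 from -0.05 to -0.16. The other 7 members kept their direction, with S100A4 at 0.70, S100A13 at 0.66 and S100A6 at 0.54.

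**Figure D3:**
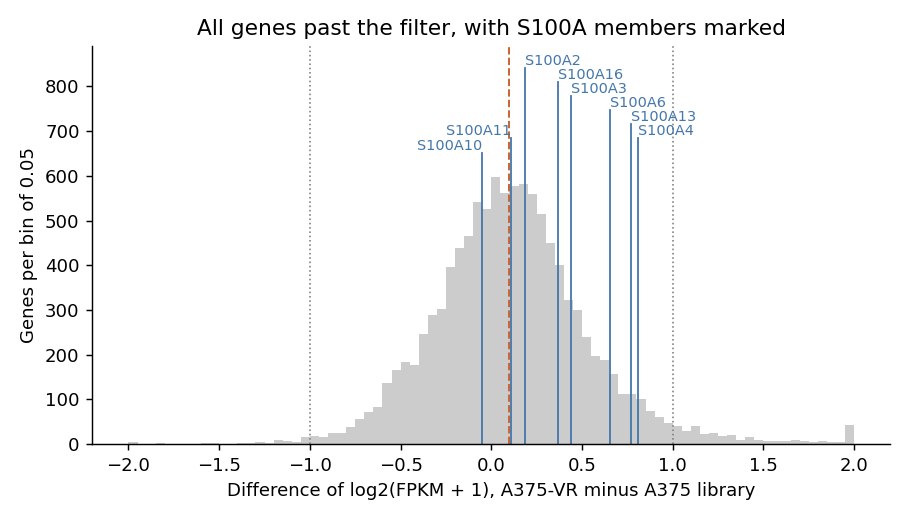
Histogram of the difference of log2(FPKM + 1), A375-VR minus A375 library, over 10761 genes in bins of 0.05, with differences beyond 2 in size placed in the end bins; blue lines mark the 8 S100A members past the filter, the dashed line the median of all genes, 0.10, and dotted lines the 2-fold limits. The members run from -0.05 (S100A10) to 0.81 (S100A4), and none crosses a 2-fold limit.

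By position on GRCh37, the members form 2 groups on chromosome 1. S100A10 (151955391 to 151966335) and S100A11 (152004982 to 152020383), both on the minus strand, lie within 64993 bp. The other 7 lie 1486691 bp further on, within 97441 bp: S100A6 (153507075 to 153508720), S100A4 (153516089 to 153522612), S100A3 (153519805 to 153521734), S100A2 (153533584 to 153540366), S100A16 (153579362 to 153585621) and S100A13 (153591263 to 153603836) on the minus strand, and S100A1 (153600402 to 153604515) on the plus strand. The first pair had ratios of 0.967 and 1.08, and the 6 measurable members of the second group 1.14 to 1.76. S100A2, with 1.14, stood between S100A3 at 1.40 and S100A16 at 1.29, and its interval (1.03 to 1.26) overlapped both of theirs. The interval of S100A2 also overlapped that of S100A11 in the first pair (1.03 to 1.13), so the groups were not fully separated by their intervals. The intervals of S100A16 (1.25 to 1.33) and its next measurable neighbour S100A13 (1.57 to 1.98) did not overlap. S100A3 lies inside the extent of S100A4 but shares no exonic base with it in GENCODE. Exons of S100A13 and S100A1 overlap on opposite strands by 235 bp, or 10.6% of the exonic length of S100A13. S100A13 also shares 536 exonic bp, or 24.2% of its length, with the long noncoding RNA gene ENSG00000271853 on the same strand, which has no row in the files. Whether counting used the strand is not given in the sources used here, so the values of S100A1 and S100A13 are both uncertain.

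The genes around them did not share one direction. Of 27 listed genes of the same chromosome band outside the family, 17 passed the filter, 9 with a difference above 0 and 8 below, none 2-fold, with a median of 0.10. ILF2, a double-stranded RNA-binding factor, had 277 and 178 FPKM, TPM3, a tropomyosin, 142 and 102, and the mitochondrial ribosomal gene MRPL9 46.5 and 37.9. Genes of the epidermal differentiation complex, which lies between the 2 groups and codes for the cornified envelope of skin, were nearly silent. FLG, coding for filaggrin, was the sole one of 32 past the filter, at 1.70 and 1.86 FPKM, and 26 were listed at 0 in both libraries.

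Other S100 genes were low. Of 12, only 3 passed the filter and 6 were listed at 0 in both libraries, among them S100A8, S100A9 and S100A12, the calgranulins of myeloid cells. S100B, the diagnostic S100 protein of melanocytic tumours, had 3.72 and 12.6 FPKM, a ratio of 3.39 (2.11 to 5.61) from 24 and 75 reads. S100P, which lies outside the cluster, had 2.19 and 7.32 FPKM, a ratio of 3.34 (2.101 to 5.47) from 25 and 77 reads. These 2 genes were called 2-fold higher, as were 3.14% of all genes past the filter. S100A5, the neighbour of S100A6 and S100A4, had 3.15 and 2.41 FPKM, and its ratio of 0.763 had an interval (0.466 to 1.24) that holds 1. S100B was far less abundant than S100A6 in both libraries.

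For the promoters, all 9 members matched RefSeq windows of GRCh38.p14 that run from 250 bases before a gene start to 50 after it, 13 windows in all. The AP-1 letters TGACTCA, searched on both strands, were in 2 of the 13 windows, of S100A2 and S100A3, and in 4.95% of 35116 windows of all genes. The E-box CACGTG was in 0 of the 13 and in 7.26% of all. The TEAD letters GGAATG were in 2 of the 13, both of S100A16, and in 14.03% of all. The Sp1 letters CCGCCC were in 6 of the 13, or 46.2%, and in 44.95% of all, so the members' share is near that of all genes. Both AP-1 matches, and 1 GC box of the most abundant member, are printed with 12 bases on each side on GRCh38.p14, to show the letters in place; capitals mark the motif.
S100A3 (chr1:153549465-153549495, minus strand): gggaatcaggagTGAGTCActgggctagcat
S100A2 (chr1:153565878-153565908, minus strand): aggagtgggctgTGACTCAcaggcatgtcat
S100A6 (chr1:153536053-153536082, minus strand): cgggcgggacttGGGCGGgcggggtgggct
The AP-1 letters stand at -225 to -219 from the start in S100A3 and at -52 to -46 in S100A2. S100A6 holds the GC box 3 times, of which 2 overlap, and the one printed starts at -79. The Sp1 letters were found in S100A6, S100A10, S100A11, S100A13, S100A16 and S100A3, a set that holds the highest and the lowest ratio of the members past the filter. A match of letters is a description and shows no binding.

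Genes of binding partners differed in both directions. Annexins bind membranes in a calcium-dependent way, and several are held together in pairs by an S100 dimer. Of 13 annexin genes 9 passed the filter, 6 with a difference above 0 and 3 below, 1 called 2-fold higher and 0 lower, with a median of 0.08. The shares of all genes called were 3.14% higher and 0.613% lower. ANXA2, the partner of S100A10, had 136 and 108 FPKM, a ratio of 0.796 (0.773 to 0.819). ANXA1, the partner of S100A11, had 301 and 186 FPKM, a ratio of 0.620 (0.607 to 0.633). ANXA5 had 126 and 127 FPKM. ANXA9, the one called 2-fold, had 0.738 and 2.57 FPKM from 24 and 77 reads. ANXA3, named after its values were seen, was below the filter in both libraries. It had 0.942 and 0.0712 FPKM from 86 and 6 reads, a ratio of 0.0756 (0.0270 to 0.171). The level of S100A10 was 2.64 and 3.21 times that of ANXA2. That of S100A11 was 2.16 and 3.75 times the level of ANXA1. These are ratios of FPKM and depend on the gene lengths used, 340 bp for S100A11 and 4561 bp for ANXA1 as recovered. They are therefore not read as ratios of molecules. In both pairs the annexin level differed more between the libraries than the S100A level did.

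Intracellular targets of S100 proteins were spread on both sides of 0. Of 34 listed genes 29 passed the filter, 13 above 0 and 16 below, with a median of -0.02, 1 called 2-fold higher and 1 lower. The shares of all genes called were 3.14% and 0.613%. ENO1, an enolase that also binds plasminogen, had 928 FPKM in both libraries. NCL, nucleolin, had 187 and 116 FPKM. TPM1, a tropomyosin, had 27.3 and 11.7 FPKM, a ratio of 0.428 (0.408 to 0.449), and AHNAK2 had 0.927 and 5.10, a ratio of 5.50 (4.87 to 6.23). A further 4 partners were named for their binding to a member after values were seen. MYH9, the heavy chain of nonmuscle myosin IIA bound by S100A4, had 43.1 and 33.3 FPKM, so that S100A4 stood at 4.55 and 10.3 times its level. CACYBP, the calcyclin-binding protein, had 92.4 and 69.8 FPKM, and S100A6 stood at 10.8 and 22.5 times its level. Like those for the annexins, these ratios of FPKM between genes depend on the gene lengths used. AHNAK, a giant scaffold bound by S100A10 with annexin A2, had 21.7 and 28.7 FPKM, a ratio of 1.32 (1.28 to 1.37). ANXA11, which binds S100A6, had 28.3 and 30.7 FPKM.

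**Figure D4:**
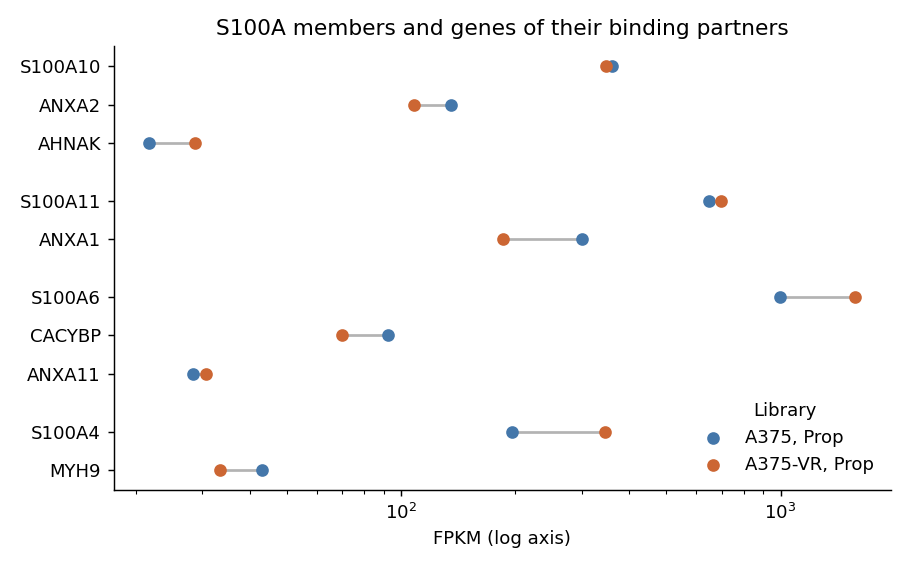
FPKM (log axis) of 4 S100A genes and genes of their binding partners in the A375 library (blue) and the A375-VR library (orange), joined by a line. S100A6 and S100A4 are higher in the A375-VR library, whereas CACYBP, MYH9, ANXA2 and ANXA1 are lower there and AHNAK and ANXA11 are higher.

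Receptors reported for released S100 proteins were measured for 8 of 15 genes, 4 above 0 and 4 below, none 2-fold, with a median of -0.08. BSG, or basigin, had 139 and 140 FPKM, MCAM 42.6 and 46.2, and the proteoglycan gene SDC1 44.1 and 30.3. AGER, the receptor for advanced glycation end products and the best known S100 receptor, was named after its values were seen: it had 1.41 and 1.11 FPKM, a ratio of 0.792 (0.507 to 1.23), not detectably different from 1 at this depth. In the small list for release of FGF1 and interleukin 1 alpha, the route of S100A13, 5 of 7 genes passed the filter, 3 above 0 and 2 below, none 2-fold. COPZ1 had 53.4 and 47.7 FPKM, FGF2 5.28 and 5.20, and SPHK1, sphingosine kinase, 3.64 and 7.01, a ratio of 1.93 (1.67 to 2.24). SYT1 and FGF1 were named after their values were seen. SYT1 had 0.441 and 1.48 FPKM, a ratio of 3.36 (2.43 to 4.70) from 51 and 158 reads. On the log2(FPKM + 1) scale its difference was 0.78, below the 2-fold limit. FGF1 itself was below the filter, at 0.0639 and 0.161 FPKM from 6 and 14 reads.

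Calmodulin and other EF-hand genes gave a comparison within the wider superfamily. Of 38 genes 31 passed the filter, 19 above 0 and 12 below, none called 2-fold, with a median of 0.08 beside 0.40 for the S100A members and 0.10 for all genes. ACTN4, an actinin, had 164 and 173 FPKM, and the myosin light chain genes MYL12B and MYL6 had 143 and 112, and 112 and 128. Their highest level was 173 FPKM, so in FPKM all 5 of the abundant S100A members exceeded every listed EF-hand gene in both libraries. This order depends on the gene lengths used. MYL6 had 9186 and 9699 recovered reads over 4609 bp, and S100A4 had 3577 and 5798 over 1025 bp. Calcium channels and pumps had a median of 0.28, with 15 of 18 above 0, 3 called 2-fold higher and 0 lower. Of all genes past the filter, 6493 of 10761 were above 0, 3.14% were called higher and 0.613% lower. ATP2A2, the calcium pump of the endoplasmic reticulum, had 26.7 and 28.4 FPKM and the store-operated channel gene ORAI1 24.1 and 30.01. The 3 called were TRPV2 with 12.8 and 27.4 FPKM, the plasma membrane pump ATP2B4 with 7.02 and 15.6, and ORAI3 with 1.04 and 4.70.

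Both libraries carried melanocyte lineage markers in part. Of 10 markers 5 passed the filter, among them SOX10 at 65.3 and 149.6 FPKM, ERBB3 at 10.1 and 36.0 and MITF at 6.47 and 3.47, while TYR, MLANA, TYRP1, DCT and PMEL were under 1 FPKM in both. Of the 5, 4 were called 2-fold higher and 0 lower, with a median difference of 1.18. The shares of all genes called were 3.14% higher and 0.613% lower. The summed level of this list was 87.2 and 206 FPKM. As markers of other cells, 0 of 10 leukocyte genes passed the filter, with PTPRC listed at 0 in both libraries and sums of 0.147 and 2.44 FPKM. Of 10 keratinocyte genes 5 passed: KRT10 at 44.9 and 56.01 FPKM, SFN at 6.47 and 4.42, KRT14 at 2.73 and 3.47, KRT15 at 0.874 and 2.68 and DSC3 at 0.684 and 1.09. The list summed to 56.2 and 68.6 FPKM, and KRT1, DSG3 and TP63 were at 0 in both. Of the fibroblast markers LUM alone passed, at 2.99 and 4.89 FPKM, with list sums of 3.51 and 5.59, and of the endothelial markers KDR alone, at 0.394 and 1.84, with sums of 0.755 and 2.17. KDR was called 2-fold higher, with a difference of 1.02. The part of these lists in the S100A differences was not tested.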

How the data were processed

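RNA was sequenced in 3 samples, of which 2 libraries, 1 per group, were used. Per the labels' design text, stranded mRNA libraries were read as 150 bp pairs and mapped to GRCh37 by TopHat 1.3.3. The authors deposited FPKM, 1 value per gene and library. For the counter, annotation and strand setting, nothing is stated in the sources used here. Members and gene lists were chosen with earlier results of these data known.

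Differences used log2(FPKM + 1) and genes that reached an FPKM of 1 in either library. Named genes were all 9 members, every other S100 gene past the filter, cell type markers past the filter, and, of each other list, the 3 with the highest mean FPKM and those called 2-fold. A gene taken by this rule is not reported here. Others are stated as chosen after their values were seen.

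Reads were recovered after the data were seen. FPKM ratios of genes with few reads are ratios of whole numbers times the ratio of the library totals (tolerance 1e-12). With that ratio, 85.1% of 1308 sampled low genes needed under 2000 reads, and 0% with it moved slightly. The totals, 17811339 (A375 library) and 16438482 (A375-VR library), are those at which the largest number of gene lengths (1453) equalled the exon length of GENCODE 44, against 497 for the next. These 1453 are a minority of the 13990 genes with reads in both libraries. The median gene past the filter had 622 and 636 reads. Reads are the smallest whole numbers that fit, raised to the reference length where it is a whole multiple. This length was reached in 4 members (S100A1, S100A6, S100A13, S100A16), in S100A6 and S100A13 without raising. For the other 5, true reads can be multiples and intervals too wide. Intervals are 95% exact Clopper-Pearson (ratios) or Poisson (levels). No count model was run, since with 1 library per group it has no replicates. Steps were tested on simulated data, in which gene lengths were known and intervals were taken from the true reads. Intervals from recovered reads were thus not tested. Proteins were aligned with MAFFT 7.526. Alternatives were another pseudocount, other filters, 3 scalings and the smallest reads.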

Additional observations from a re-analysis of the deposited data

How the results depend on the processing

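None of the S100A members past the filter was called 2-fold in either direction under a pseudocount of 0.1, a filter at FPKM 5, no filter, centring on the median ratio, the trimmed mean of log ratios or a common sum. S100A1, which the filter leaves out, moved from -0.42 to -1.45 with a pseudocount of 0.1, past the 2-fold limit, and to -0.98 with the common sum. The median difference of the members moved from 0.40 to 0.29 after centring and to 0.29 with the trimmed mean, by construction, since these take the shift of all genes out. Under those 2 scalings S100A11 was just below 0 (-0.01 in both), and the other 8 members kept their direction under all 6 alternatives. The split of all genes called 2-fold moved more. It was 338 higher and 66 lower (83.7% higher) with the main settings, 273 and 101 (73.0%) after centring, 272 and 101 (72.9%) with the trimmed mean, 689 and 140 with a pseudocount of 0.1, and 624 and 104 with the common sum, where the pseudocount is small beside the values. With the smallest reads, 8 of 8 members kept an interval that leaves out 1. For all of these members except S100A16 the smallest reads are the main reads, so this alternative could move S100A16 only. Depth limits S100A1, with 27 and 6 reads, and S100A3, with 149 and 192. With 1 library per group, nothing here measures the spread between cultures.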
